A study of Homo sapiens with 32 samples.

Results

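The transcription factor genes PAX3, PAX7, FOXO1, FOXO3 and FOXO4 were followed through 20 RNA-seq libraries of total RNA from RH4, an established human alveolar rhabdomyosarcoma line. They were chosen by name and are 5 of the 18980 coding genes listed in every library. The labels give 4 compounds (A485, dCBP, IHK-44 and JQAD), which the study describes as blocking or degrading CBP and p300, the paralogous acetyltransferases that act as transcriptional coactivators. Each compound was given at 100 nM and at 1000 nM for 2 h and for 6 h, which makes 16 treated libraries, and the controls were the solvent (DMSO) and NT, a label that is not explained, each with 1 library at 2 h and 1 at 6 h. All groups are the same line, and each of the 20 conditions had 1 library. A compound was therefore compared over its 4 libraries, which differ in dose and time, and p-values measure the spread between these single libraries.

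PAX3 and PAX7 encode paired-box factors that specify muscle progenitors in the embryo. FOXO1, FOXO3 and FOXO4 encode forkhead factors that growth factor signalling through AKT keeps out of the nucleus, and that switch on genes of cell cycle arrest, stress resistance and protein breakdown when that signalling falls. In most alveolar rhabdomyosarcomas a translocation joins the DNA-binding part of PAX3 or PAX7 to the activation part of FOXO1, and the fusion gene is transcribed from the PAX promoter. RH4 carries the PAX3 form. The files list PAX3 and FOXO1 but no fusion, so reads of the fusion transcript are counted with both genes and cannot be told apart from those of the intact alleles.

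The promoter windows of PAX3, FOXO1 and FOXO4 are shown because PAX3 and FOXO1 fell together and FOXO4 did not, and because the study's title concerns CpG density. FOXO1 counts include the fusion transcript made from the PAX3 promoter, so their fall cannot be assigned to the FOXO1 window. Each window runs from 250 bases before to 50 bases after the transcription start in RefSeq on GRCh38.p14, is written 5′ to 3′ on the gene's strand, and has every CpG in capitals. The windows are chr2:222298949-222299248 (minus strand), chr13:40666592-40666891 (minus strand) and chrX:71095601-71095900 (plus strand).
PAX3: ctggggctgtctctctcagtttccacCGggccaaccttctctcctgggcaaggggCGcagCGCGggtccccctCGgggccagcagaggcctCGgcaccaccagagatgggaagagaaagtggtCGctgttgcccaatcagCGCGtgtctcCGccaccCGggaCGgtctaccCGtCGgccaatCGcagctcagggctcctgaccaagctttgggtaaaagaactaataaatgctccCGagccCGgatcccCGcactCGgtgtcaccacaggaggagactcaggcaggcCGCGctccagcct
FOXO1: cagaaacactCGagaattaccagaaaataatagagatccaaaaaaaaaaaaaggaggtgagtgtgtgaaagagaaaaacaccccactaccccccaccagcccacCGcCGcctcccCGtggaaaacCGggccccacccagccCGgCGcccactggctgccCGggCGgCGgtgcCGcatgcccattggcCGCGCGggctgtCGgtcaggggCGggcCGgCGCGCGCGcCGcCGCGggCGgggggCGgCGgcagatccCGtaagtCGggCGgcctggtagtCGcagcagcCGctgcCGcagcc
FOXO4: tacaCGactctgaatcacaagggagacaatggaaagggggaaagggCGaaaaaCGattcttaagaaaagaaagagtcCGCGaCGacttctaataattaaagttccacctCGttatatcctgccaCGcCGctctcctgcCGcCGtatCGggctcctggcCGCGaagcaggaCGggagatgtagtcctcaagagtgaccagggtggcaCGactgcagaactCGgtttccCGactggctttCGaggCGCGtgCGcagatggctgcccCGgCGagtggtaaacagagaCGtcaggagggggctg
These windows held 21 CpGs in PAX3, 33 in FOXO1 and 25 in FOXO4, against a median of 21 over 21251 windows, which cover 15027 of the 18980 listed genes. The PAX7 window also held 21, and the 4 windows of FOXO3 held 47, 42, 40 and 2. All 5 genes matched the RefSeq table by symbol. The FOXO1 window held more CpGs than 77.5% of all windows, PAX3 more than 48.4% and FOXO4 more than 58.0%. Of the motifs searched on both strands, CCAAT was found in the windows of PAX3, PAX7 and FOXO1 and in 34.8% of all windows. TGTTTAC, a forkhead site, was found in FOXO4 and in 2.88% of all windows, and CAGCTG, an E-box of the MYOD type, in PAX7 and in 18.0%. TATAAA (9.41% of all windows) and TGACGTCA (2.3%) were in none of the members' windows. Such matches are descriptions of letters in a window.

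Coding genes received between 13466631 and 16799327 counts per library. The 95% Poisson intervals (counting error only) reached 3.7% to 11.4% of their midpoint on either side of it for FOXO1. This was 7.4% to 12.3% for FOXO4 and 12.4% to 21.4% for PAX7, the lowest member. The upper limit lay further from the value itself than the lower limit. In 1000 nM dCBP at 6 h, PAX7 was at 6.34 CPM with limits of 5.07 and 7.83. Of 10 markers of alveolar rhabdomyosarcoma 9 were at 1 CPM (CPM is the expected count relative to the library's coding total) or more in all 20 libraries, and CDH3 was the exception. Their sum was 2840 to 3072 CPM in the controls, 1437 to 2358 with dCBP and 1373 to 2453 with IHK-44, and its part in the changes below was not tested. The 10 markers of other cell types summed to 0.265 to 2.45 CPM, with EPCAM and KRT5 at 0 throughout. The median gene shifted up by as much as 0.22 in log2(CPM + 1) against DMSO (1000 nM IHK-44 at 6 h) and by over 0.1 in the 6 h libraries of dCBP, IHK-44 and 1000 nM A485, so falls and rises in CPM in those libraries are relative to a raised median. On the deposited TPM scale (scaled over all rows, coding or not) the shift was larger and went the other way for 2 compounds: coding rows held 39.3% to 44.5% of TPM in the controls, 27.9% to 35.4% with dCBP, 31.2% to 34.6% with IHK-44 and 43.0% to 53.9% with A485. The median gene in log2(TPM + 1) then lay between -0.14 and -0.54 relative to the controls with dCBP and between -0.28 and -0.39 with IHK-44. CPM over coding genes removes that shift, so the changes given here are relative to other coding genes. In bulk samples fewer cells of a type and less RNA per cell cannot be told apart.

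In the controls PAX3 had the highest level per length. It was at 41.2 ± 1.24 CPM per kb (SD, n = 4), followed by FOXO1 at 31.9 ± 1.27, FOXO3 at 19.9 ± 2.32, FOXO4 at 7.997 ± 0.239 and PAX7 at 2.33 ± 0.28. The ranges of the 4 control libraries did not overlap between any neighbours in this order. The length is that of the listed gene, whereas the fusion transcript holds only a part of PAX3 and a part of FOXO1. Their values per length are therefore not levels of single transcripts. With dCBP the order changed, as FOXO1 lay between 3.80 and 19.9 CPM per kb and overlapped both FOXO3 (11.98 to 16.2) and FOXO4 (5.59 to 14.7).

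**Figure D1:**
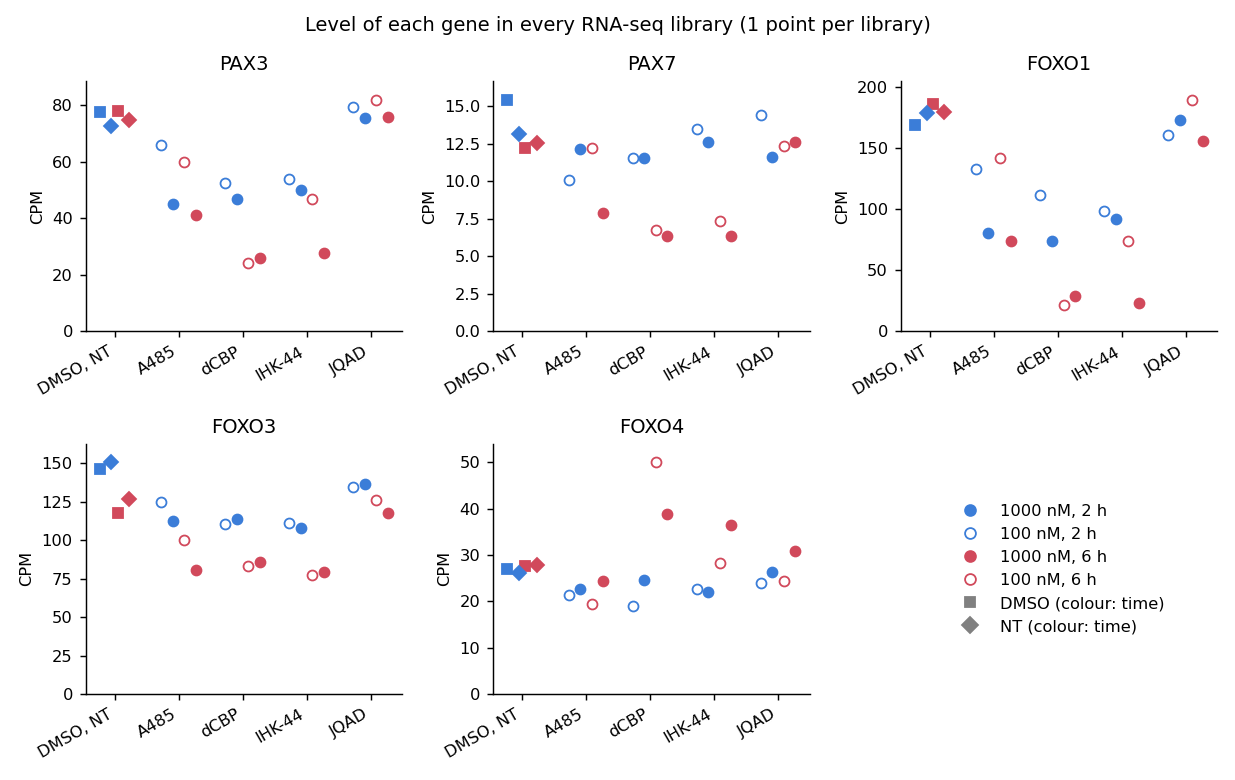
Level of PAX3, PAX7, FOXO1, FOXO3 and FOXO4 in CPM (vertical axis, from 0) in each of the 20 libraries, with 1 point per library, colour for time, filled circles for 1000 nM and open circles for 100 nM. PAX3 and FOXO1 are lowest in the 6 h libraries of dCBP and in 1000 nM IHK-44 at 6 h, and FOXO4 is highest in 100 nM dCBP at 6 h (50.04 CPM).

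PAX3 was lower with dCBP, IHK-44 and A485 than in any control. DMSO gave 77.5 CPM at 2 h and 78.0 at 6 h, and NT gave 72.6 and 74.7. With dCBP it was 46.9 CPM at 1000 nM and 52.4 at 100 nM after 2 h, and 26.03 and 24.2 after 6 h. With IHK-44 it was 50.1 at 1000 nM and 54.0 at 100 nM after 2 h, and 27.6 and 46.9 after 6 h. The dCBP and IHK-44 values thus lay below all 4 controls, and the 6 h values below those of 2 h at the same dose. A485 gave 45.0 and 41.3 CPM at 1000 nM after 2 h and 6 h, and 66.0 and 59.9 at 100 nM. JQAD gave 75.3, 75.7, 79.2 and 82.0 CPM, a range that overlapped the controls.

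Fitted over its 4 libraries against DMSO, PAX3 fell by 1.21 on the log2 scale with dCBP (SE 0.26, edgeR quasi-likelihood test with Benjamini-Hochberg adjustment, adjusted p 0.00683) and by 0.94 with IHK-44 (SE 0.26, adjusted p 0.0258). The log2 change was -0.62 with A485 (SE 0.26, adjusted p 0.216) and 0.01 with JQAD (SE 0.27, adjusted p 1.0), neither past the threshold of 0.05.

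PAX7, the paralog of PAX3 that marks muscle satellite cells, was the lowest of the 5 genes in the controls. DMSO gave 15.4 CPM at 2 h and 12.2 at 6 h, and NT gave 13.1 and 12.6. With dCBP it was 11.5 CPM at 1000 nM and 11.6 at 100 nM after 2 h, and 6.34 and 6.73 after 6 h. With IHK-44 it was 12.6 and 13.4 after 2 h, within the range of the 4 controls although 12.6 lay below both 2 h controls, and 6.38 and 7.32 after 6 h, below all 4. A485 gave 12.2 and 7.91 CPM at 1000 nM and 10.1 and 12.2 at 100 nM after 2 h and 6 h, and JQAD ranged from 11.6 to 14.4, both overlapping the controls. The fitted log2 change was -0.74 with dCBP (SE 0.24, edgeR adjusted p 0.0361) and -0.62 with IHK-44 (SE 0.24, adjusted p 0.0787), so that PAX7 fell with dCBP by this test and did not pass with IHK-44. It was -0.44 with A485 (adjusted p 0.321) and -0.09 with JQAD (adjusted p 1.0). The dCBP call was lost with NT in place of DMSO (-0.64, adjusted p 0.0617).

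FOXO1 moved furthest of the 5 genes. The DMSO libraries gave 169 CPM (2 h) and 186 CPM (6 h), and both NT libraries gave 179. With dCBP it was 73.5 CPM at 1000 nM and 112 at 100 nM after 2 h, and 28.5 and 21.2 after 6 h, the last being 11.4% of DMSO at 6 h. IHK-44 gave 91.7 and 98.1 CPM after 2 h, and 23.5 at 1000 nM and 73.9 at 100 nM after 6 h. All dCBP and IHK-44 libraries lay below the controls. With A485 the value was 80.8 and 74.0 CPM at 1000 nM after 2 h and 6 h, and 133 and 142 at 100 nM, also below the controls. JQAD gave 173, 156, 160.4 and 189.6 CPM, on both sides of the controls. Against DMSO the fitted log2 change was -1.85 with dCBP (SE 0.48, edgeR adjusted p 0.0156) and -1.51 with IHK-44 (SE 0.48, adjusted p 0.0411). It did not pass with A485 (-0.80, SE 0.48, adjusted p 0.367) or JQAD (-0.07, SE 0.49, adjusted p 1.0).

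FOXO3, the FOXO gene with the clearest control drift between times, was at 146 CPM in DMSO and 151 in NT after 2 h, and at 117 and 127 after 6 h. With dCBP it was 114 and 110.2 CPM after 2 h (1000 and 100 nM) and 86.0 and 83.5 after 6 h. With IHK-44 the values were 108 and 111 after 2 h, and 79.5 and 77.5 after 6 h. All 8 lay below the lowest control. A485 gave 112 and 80.9 CPM at 1000 nM and 125 and 99.9 at 100 nM after 2 h and 6 h, each below the controls of its own time, and JQAD gave 118 to 137 CPM. Both 2 h JQAD libraries (137 and 135 CPM) also lay below the 2 h controls. The fitted log2 change against DMSO was -0.54 with dCBP (SE 0.11, edgeR adjusted p 0.00531) and -0.61 with IHK-44 (SE 0.11, adjusted p 0.00259), and it missed the threshold with A485 (-0.41, SE 0.11, adjusted p 0.0895) and JQAD (-0.02, adjusted p 1.0).

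The FOXO3 values are uncertain, because FOXO3B, a near-identical copy on chromosome 17, moved the other way. FOXO3B was examined after the values of FOXO3 were seen. The expected counts of both were fractional in all 20 libraries, while those of PAX3, PAX7 and FOXO1 were whole (within 0.005) in all 20 and those of FOXO4 in 5. FOXO3B lay at 59.3 to 77.7 CPM in the controls, at 88.1 to 93.1 with dCBP and at 89.2 to 91.2 with IHK-44. With A485 it was at 78.0 to 101.4 CPM, and with JQAD at 60.2 to 76.7. It rose with dCBP (log2 change 0.35, SE 0.11, edgeR adjusted p 0.0279) and with IHK-44 (0.33, SE 0.10, adjusted p 0.0432). Counted as 1 gene, FOXO3 and FOXO3B were at 191 to 228 CPM in the controls, 176 to 202 with dCBP and 167 to 200.3 with IHK-44, ranges that overlap. The log2 change of the sum was -0.18 with dCBP (edgeR adjusted p 0.106) and -0.23 with IHK-44 (adjusted p 0.0575), so neither call against DMSO held. Against NT the sum passed with both (-0.27, edgeR adjusted p 0.0245, and -0.32, adjusted p 0.0141). Whether FOXO3 fell, or reads were divided differently between the copies, was not tested.

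**Figure D2:**
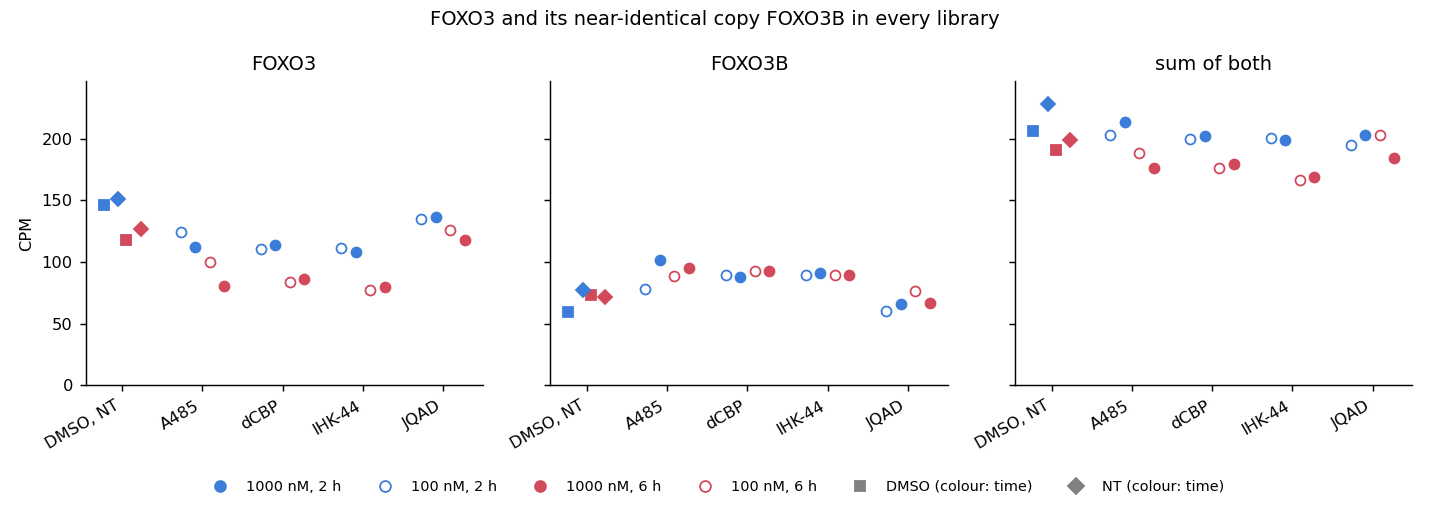
CPM (vertical axis, from 0) of FOXO3, of FOXO3B and of their sum in each of the 20 libraries, coded as for the levels of the 5 genes. FOXO3 is lower and FOXO3B higher with dCBP and IHK-44, and the sum runs from 167 to 228 CPM over all libraries.

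FOXO4, the X-linked member of the family, lay under the control range early and over it later in the dCBP and IHK-44 libraries, in CPM. The controls were close together, at 26.9 and 27.7 CPM in DMSO and 26.1 and 27.8 in NT (2 h and 6 h). With dCBP it was below them after 2 h, at 24.7 CPM (1000 nM) and 19.1 (100 nM), and above them after 6 h, at 38.8 and 50.04. IHK-44 gave 22.1 and 22.7 CPM after 2 h, and 36.5 and 28.3 after 6 h, again below and then above. In log2(CPM + 1) against DMSO at 6 h, FOXO4 was up by 0.028 with 100 nM IHK-44, less than the median gene (0.178). With 1000 nM IHK-44 it was up by 0.386, more than the median gene (0.217). The counting intervals of 100 nM IHK-44 at 6 h (25.8 to 30.9 CPM) and of 1000 nM dCBP at 2 h (22.1 to 27.5) include control values. A485 was below the controls in all 4 libraries in CPM (19.4 to 24.3), and JQAD ranged from 24.0 to 30.9. The position at 6 h depends on the scale. In TPM, FOXO4 was at 7.34 (DMSO) and 7.54 (NT) at 6 h, at 8.65 and 8.29 with dCBP, and at 6.94 and 5.54 with IHK-44 (1000 and 100 nM), so that IHK-44 lay below the controls on that scale. With 1000 nM A485 FOXO4 was at 8.62 TPM at 2 h and 8.22 at 6 h, above the controls of the same time (8.19 and 7.90 at 2 h), and with 100 nM A485 it was below them at 6.27 and 6.58. Averaged over both times, FOXO4 passed for no compound: the log2 change was 0.12 with dCBP (edgeR adjusted p 0.701), -0.14 with IHK-44 (adjusted p 0.669), -0.39 with A485 (adjusted p 0.317) and -0.05 with JQAD (adjusted p 1.0). The dCBP value changed sign on the TPM scale (-0.25, limma adjusted p 0.321) and without 100 nM dCBP at 6 h (-0.09, edgeR adjusted p 0.736).

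Against DMSO, 4 of the 5 genes were thus called lower with dCBP, where 23.7% of all 13260 genes tested were called in either direction. With IHK-44, 3 of 5 were called lower, against 16.9% of all genes, and with A485 0 of 5, against 0.271%. JQAD had 0 of 5 and 0% of all genes, with 143 genes at an unadjusted p under 0.05, and NT against DMSO had 0 of 5 and 0%, with 104 such genes. Under DESeq2, FOXO3 was called with A485 and 0 of 5 with JQAD. Over all genes 1570 of the 3137 calls were higher with dCBP and 1026 of 2247 with IHK-44. The share of calls that were higher was 2.7% and 1.4% for these compounds with limma on log2(TPM + 1), and 69.5% and 66.8% with limma on log2(CPM + 1). PAX3, PAX7, FOXO1 and FOXO3 were called lower with both compounds on the TPM scale. There 4123 (dCBP) and 3984 (IHK-44) of the 13260 genes were called, nearly all of them lower. The median gene was itself lower on that scale, so these calls do not show a fall relative to other genes. The 4 libraries of a compound lay below all 4 controls for PAX3, PAX7, FOXO1 and FOXO3 with dCBP (10.6% of all genes did so), for PAX3, FOXO1 and FOXO3 with IHK-44 (10.9%), for PAX3, FOXO1 and FOXO4 with A485 (7.04%) and for none with JQAD (1.47%). The median log2 change of the 5 genes was -0.74 (dCBP), -0.62 (IHK-44), -0.44 (A485) and -0.05 (JQAD), beside medians over all tested genes of 0.05, 0.04, 0.01 and 0.00. The calls against DMSO rest on its 2 libraries: without DMSO at 6 h, 0 of 5 were called with dCBP (PAX3 at -1.01, edgeR adjusted p 0.149, and FOXO1 at -1.45, adjusted p 0.232) and 0 of 5 with IHK-44.

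The compounds, which match in doses and times, were next compared with each other in 6 pairs, each adjusted over all genes. The fit took account of time but not of dose. Against JQAD, dCBP was lower in PAX3 (log2 difference -1.22, SE 0.22, edgeR adjusted p 0.0013), PAX7 (-0.65, SE 0.20, adjusted p 0.0219), FOXO1 (-1.78, SE 0.42, adjusted p 0.00567) and FOXO3 (-0.51, SE 0.09, adjusted p 0.00105), that is 4 of 5 where 35.3% of all genes were called. IHK-44 was lower than JQAD in PAX3 (-0.94, SE 0.22, edgeR adjusted p 0.00561), FOXO1 (-1.43, SE 0.41, adjusted p 0.0157) and FOXO3 (-0.59, SE 0.09, adjusted p 0.000396), 3 of 5 against 32.5%. With FOXO3B added, the FOXO3 difference from JQAD was lost for dCBP (-0.17, edgeR adjusted p 0.054) and held for IHK-44 (-0.22, adjusted p 0.0192). A485 was lower than JQAD in FOXO3 alone (-0.39, SE 0.09, edgeR adjusted p 0.026, 4.91% of all genes called), and this was lost with FOXO3B added (-0.09, adjusted p 0.408) or without 1000 nM A485 at 2 h or at 6 h, while 2 of 5 were called without 100 nM A485 at 6 h.

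No member was called between dCBP and IHK-44, where 0% of all genes were (883 at an unadjusted p under 0.05), and the log2 differences ran from -0.35 (FOXO1, SE 0.41) to 0.25 (FOXO4, SE 0.17). DESeq2 also called no member for that pair. Between dCBP and A485 (0.724% of all genes called) FOXO1 differed by -1.05 (SE 0.42, edgeR adjusted p 0.176) and PAX3 by -0.58 (SE 0.22, adjusted p 0.166), and neither passed. The corresponding values between IHK-44 and A485 (0.882%) were -0.71 (SE 0.41, edgeR adjusted p 0.366) for FOXO1 and -0.31 (SE 0.22, adjusted p 0.46) for PAX3. These differences have wide errors, and a missed threshold does not show that the compounds act alike on these genes.

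Dose was compared within each compound over the 2 times. For A485 the log2 difference, 1000 nM minus 100 nM, was -0.61 in PAX3 (SE 0.15, edgeR adjusted p 0.109) and -0.90 in FOXO1 (SE 0.30, adjusted p 0.249), and neither passed, with 0 of 5 members called where 0.907% of 12895 genes were. For IHK-44 the log2 differences were -0.46 in PAX3 and -0.88 in FOXO1 (edgeR adjusted p 1.0 for both, 0.109% of all genes called). The gap in FOXO1 with IHK-44 came from 6 h, at 23.5 against 73.9 CPM, while the 2 h values were 91.7 and 98.1. Without 100 nM IHK-44 at 2 h the fitted difference was -1.70 (edgeR adjusted p 0.0285), and without 100 nM IHK-44 at 6 h it was -0.125 (adjusted p 1.0). With dCBP, FOXO1 at 6 h was 28.5 CPM at the higher dose and 21.2 at the lower. No member was called for the dose of dCBP or JQAD, where 0% of genes were. Genes under an unadjusted p of 0.05 numbered 142 and 251. DESeq2 called PAX3 for the dose of A485 and no member for the other compounds.

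Time separated the effects. The change against DMSO and NT of the same time was larger at 6 h than at 2 h with dCBP for FOXO1 (log2 interaction -2.06, SE 0.56, edgeR adjusted p 0.0309) and PAX3 (-1.10, SE 0.32, adjusted p 0.0406), and it went up for FOXO4 (0.87, SE 0.23, adjusted p 0.028). That made 3 of 5 members, where 9.21% of 13001 genes were called. PAX7 (-0.70, SE 0.28, adjusted p 0.12) and FOXO3 (-0.21, SE 0.15, adjusted p 0.395) did not pass in that edgeR fit. With IHK-44 no member passed, against 10% of all genes, and PAX7 came nearest (-0.82, SE 0.27, edgeR adjusted p 0.0681). Without 100 nM IHK-44 at 6 h FOXO1 (-2.23, edgeR adjusted p 0.00788) and PAX3 (-1.08, adjusted p 0.032) passed. No member passed with A485 (0.00769% of all genes) or JQAD (0%, 211 genes at an unadjusted p under 0.05). All 3 dCBP calls were lost when DMSO or NT alone served as the control, which leaves 1 control library per time: with DMSO alone the log2 values were -2.14 for FOXO1, -1.09 for PAX3 and 0.88 for FOXO4, at edgeR adjusted p-values of 0.176, 0.216 and 0.184. Without 100 nM dCBP at 2 h, 0 of 5 were called.

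**Figure D3:**
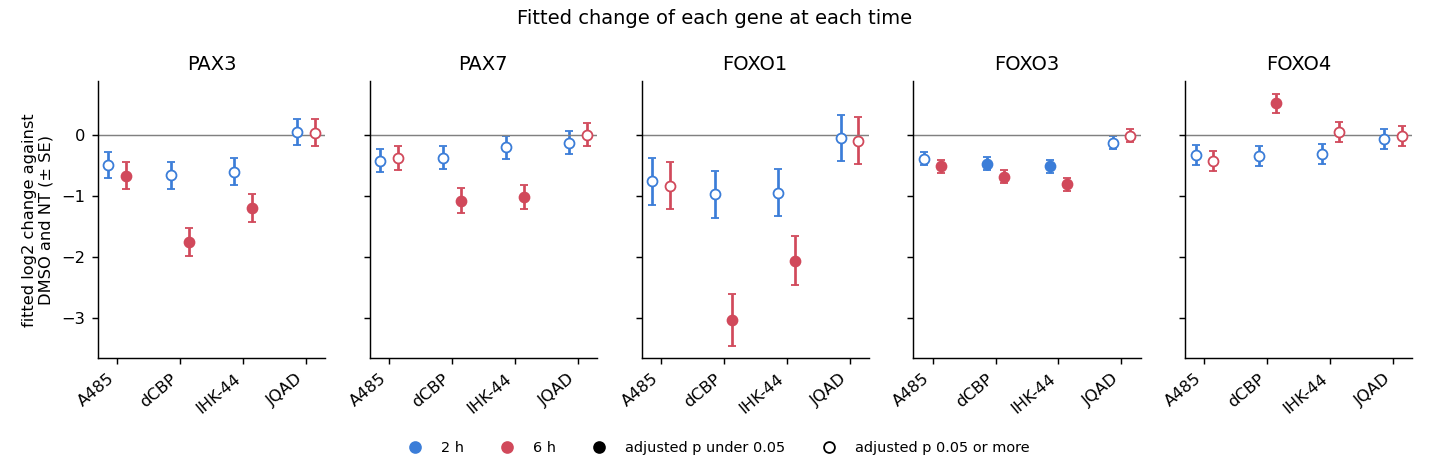
Fitted log2 change of each gene against DMSO and NT (vertical axis, ± SE) at 2 h and 6 h for the 4 compounds, with filled points for an adjusted p under 0.05. At 6 h FOXO1 reaches -3.03 and PAX3 -1.75 with dCBP, while FOXO4 is at 0.53.

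The change at each time alone was a contrast added after the data were seen. Its 2 libraries per compound were the 2 doses, so each value averages over dose and is not a replicated effect of 1 dose. With IHK-44 at 6 h the doses lay apart, at 23.5 (1000 nM) and 73.9 CPM (100 nM) in FOXO1 and 27.6 and 46.9 in PAX3. At 6 h all 5 members were called with dCBP, where 46.5% of all genes were. FOXO1 fell by 3.03 on the log2 scale (SE 0.43, edgeR adjusted p 4.44e-05), PAX3 by 1.75 (SE 0.23, adjusted p 2.74e-05), PAX7 by 1.07 (SE 0.20, adjusted p 0.000502) and FOXO3 by 0.68 (SE 0.11, adjusted p 0.000111), and FOXO4 rose by 0.53 (SE 0.16, adjusted p 0.0131). The FOXO4 call rests on 1 library, since it was 0.30 (edgeR adjusted p 0.194) without 100 nM dCBP at 6 h, and it was lost with DMSO alone as control (0.52, adjusted p 0.086). With IHK-44 at 6 h 4 of the 5 were called lower, against 43.1% of all genes called: FOXO1 fell by 2.06 (SE 0.40, edgeR adjusted p 0.00069), PAX3 by 1.19 (SE 0.22, adjusted p 0.000528), PAX7 by 1.01 (SE 0.20, adjusted p 0.000682) and FOXO3 by 0.80 (SE 0.11, adjusted p 2.68e-05). FOXO4 was at 0.06 (SE 0.16, adjusted p 0.8) in that fit. With FOXO3B added, FOXO3 fell by 0.28 with dCBP (edgeR adjusted p 0.00986) and by 0.38 with IHK-44 (adjusted p 0.0016) at 6 h, so at this time both calls held, at smaller sizes. A485 at 6 h called PAX3 (-0.66, SE 0.22, edgeR adjusted p 0.0493) and FOXO3 (-0.51, adjusted p 0.00708), against 17.1% of all genes. The FOXO3 call was lost with FOXO3B added (-0.17, adjusted p 0.15), and 0 of 5 were called without 1000 nM A485 at 6 h and 4 of 5 without 100 nM A485 at 6 h.

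After 2 h FOXO3 alone was called, with dCBP (-0.47, SE 0.11, edgeR adjusted p 0.0182, 5.4% of all genes) and with IHK-44 (-0.51, SE 0.11, adjusted p 0.0109, 4.88%), and both calls were lost with FOXO3B added, or without either 2 h library of that compound. FOXO1 was at -0.97 with dCBP and -0.94 with IHK-44 (edgeR adjusted p 0.149 and 0.201), and PAX3 at -0.66 and -0.59 (adjusted p 0.0918 and 0.151). No member was called with A485 at 2 h (0.0462% of all genes), or with JQAD at 2 h (0%, 133 genes at an unadjusted p under 0.05) or 6 h (0%, 264 such genes). In DMSO and NT themselves no member was called between 6 h and 2 h, FOXO3 being nearest at -0.28 (SE 0.11, edgeR adjusted p 0.433).

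Ratios within a library do not depend on how that library is scaled. PAX3 to FOXO1 in CPM was 0.459 and 0.419 in DMSO and 0.406 and 0.416 in NT (2 h and 6 h). With dCBP it was 0.638 and 0.469 after 2 h (1000 and 100 nM) and 0.915 and 1.14 after 6 h, and with IHK-44 it was 0.547 and 0.55 after 2 h and 1.18 and 0.634 after 6 h. All 8 lay above the controls, so by these ratios FOXO1 counts fell by more than PAX3 counts. The closest was 100 nM dCBP at 2 h, at 0.469 against 0.459 in DMSO at 2 h. The full separation of dCBP from the controls rests on that gap, and the counting error of the ratios was not computed. The mean log2 difference was 0.81 with dCBP and 0.70 with IHK-44 (exact permutation test of 4 against 4 libraries, two-sided, p = 0.0286 for both, the smallest this design allows), and the adjusted p over 12 ratio tests was 0.0571 for both, so neither passed. With A485 it was 0.25 (exact p 0.0571, adjusted p 0.098) and with JQAD 0.12 (exact p 0.143, adjusted p 0.191).

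FOXO1 to FOXO4 fell from 6.26 to 6.84 in the controls to 0.734 and 0.425 with dCBP at 6 h (1000 and 100 nM) and 0.643 and 2.62 with IHK-44 at 6 h. The mean log2 difference was -2.10 with dCBP and -1.49 with IHK-44, again at an exact permutation p of 0.0286 and an adjusted p of 0.0571. FOXO1 to FOXO3 differed by -1.45 with dCBP and -0.96 with IHK-44, at the same exact and adjusted p. In both ratios 100 nM dCBP at 2 h lay closest to the controls. It was at 5.86 in FOXO1 to FOXO4 and 1.01 in FOXO1 to FOXO3, against 6.26 and 1.15 in DMSO at 2 h, the lowest control. The full separation of dCBP rests on these gaps. With FOXO3B added to FOXO3, a setting added after the data were seen, the FOXO1 to FOXO3 differences became -1.79 (dCBP) and -1.34 (IHK-44). A485 gave -0.71, and each had an exact permutation test adjusted p of 0.049. For dCBP and IHK-44 the exact p was already the smallest this design allows. Their adjusted p then depends only on how many of the 12 tests reach that smallest value. Its step under 0.05 is therefore no added evidence for these 2 compounds.

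**Figure D4:**
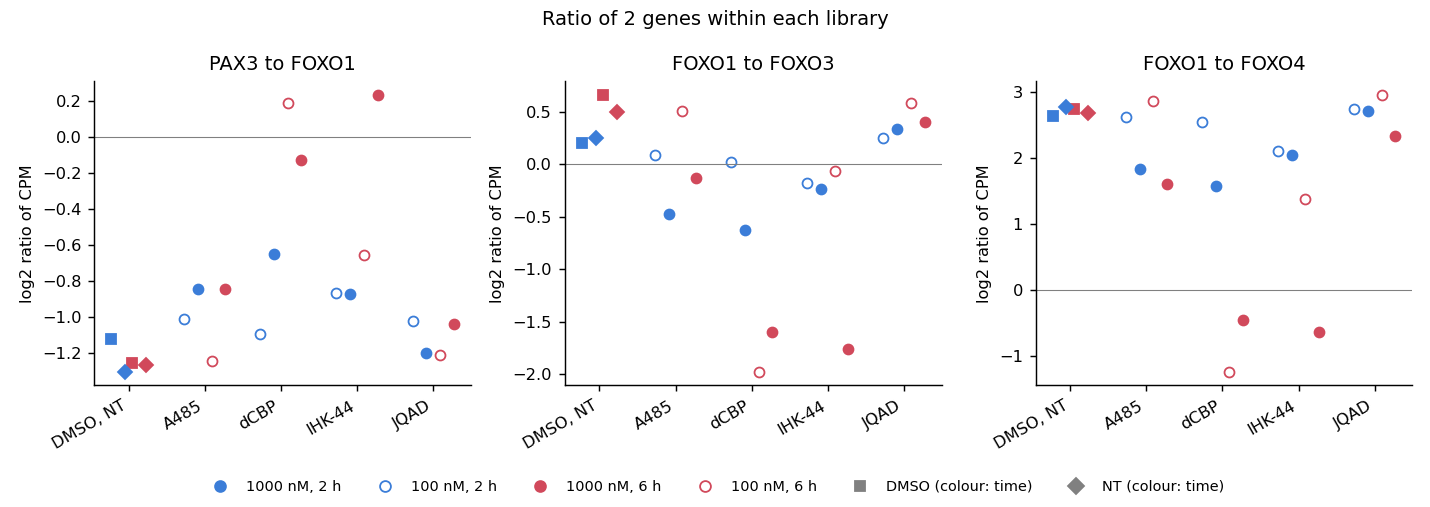
Log2 ratio of CPM (vertical axis) within each of the 20 libraries for PAX3 to FOXO1, FOXO1 to FOXO3 and FOXO1 to FOXO4, coded as for the levels of the 5 genes. The dCBP and IHK-44 libraries lie above the controls in PAX3 to FOXO1 and below them in the other 2 ratios, furthest in 3 of the 6 h libraries.

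Over the 20 libraries PAX3 and FOXO1 had nearly the same pattern, with a Pearson r of 0.984 in log2(CPM + 1). These correlations are descriptions, since the libraries share treatments. Fusion reads are counted with both PAX3 and FOXO1, and their part in the r of this pair was not tested. Among the 12169 other genes with a mean of at least 1 CPM, 1 had a higher r with PAX3 than FOXO1 had. The 3 genes most like PAX3 were MYMX (0.984), a micropeptide of myoblast fusion, EPHA2 (0.981), an ephrin receptor, and TBX15 (0.979), a T-box factor. Those most like FOXO1 were TCF12 (0.991), the E-protein partner of MYOD-type factors, MYMX (0.985) and TMEM47 (0.985). PAX7 was most like PDGFC (0.961), a growth factor, then SPATS2L (0.96) and SYTL5 (0.958), and its r with PAX3 was 0.846. FOXO3 was most like CYB561D1 (0.982), BMF (0.974), a pro-apoptotic BCL2 family gene, and TRIL (0.97). FOXO4 had an r of -0.66 with FOXO1, -0.575 with PAX3, -0.64 with PAX7 and -0.42 with FOXO3, and was most like SH3BP1 (0.928), SFRP1 (0.903), a secreted WNT antagonist, and FGFRL1 (0.899).

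Neighbours and distances are those of the GRCh38.p14 reference and hold for the intact alleles. The translocation that makes the fusion joins these regions differently, and the counts do not separate the alleles. Of 6 coding neighbours of PAX3 on chromosome 2, 5 could be tested, and EPHA4, an ephrin receptor gene 625.7 kb away, fell with dCBP (log2 change -1.50, SE 0.30, edgeR adjusted p 0.00495) and IHK-44 (-1.45, SE 0.30, adjusted p 0.00634). EPHA4 was at 87.0 to 92.5 CPM in the controls and at 19.8 to 57.5 with dCBP. The nearest, SGPP2 at 125.0 kb, was at -0.09 and -0.40 (edgeR adjusted p 0.905 and 0.559). Of 6 neighbours of FOXO1 on chromosome 13, all tested, ELF1, an ETS factor gene 265.3 kb away, fell with dCBP (-0.75, SE 0.14, edgeR adjusted p 0.00335) and IHK-44 (-0.75, SE 0.14, adjusted p 0.00323). MRPS31 and SLC25A15, which lie nearer, were within 0.17 of 0 in log2 change with both compounds and did not pass. At 6 h, 1 of the 5 tested PAX3 neighbours rose (SLC4A3) and 2 fell (EPHA4 and FARSB) with dCBP, and 1 rose (SLC4A3) and 1 fell (EPHA4) with IHK-44. Of the 6 FOXO1 neighbours at 6 h, 0 rose and 2 fell (ELF1 and LHFPL6) with dCBP, and 1 rose (COG6) and 2 fell (ELF1 and LHFPL6) with IHK-44. EPHA4 and LHFPL6 were called lower with A485 at that time. The shares of all genes called at 6 h were 46.5%, 43.1% and 17.1% for dCBP, IHK-44 and A485.

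The rest of the PAX family was mostly silent. Of 7 other PAX genes 2 could be tested, PAX1 and PAX4 were at 0 in all control, dCBP and IHK-44 libraries, and PAX6, PAX8 and PAX9 reached at most 0.825 CPM in those libraries. PAX5, known for its part in B cells, fell with dCBP (log2 change -0.97, SE 0.31, edgeR adjusted p 0.0361), from 9.24 to 10.5 CPM in the controls to between 3.32 and 8.69. With IHK-44 it was at -0.86 (adjusted p 0.0644). PAX2 was at -0.81 and -0.89 (edgeR adjusted p 0.0735 and 0.0619) and did not pass. At 6 h both PAX2 and PAX5 were called lower with dCBP, IHK-44 and A485, where 46.5%, 43.1% and 17.1% of all genes were called in either direction.

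Of 37 other forkhead genes 24 were tested, of which 2 rose and 9 fell with dCBP (23.7% of all genes called) and 2 rose and 7 fell with IHK-44 (16.9%), with list medians of -0.10 and -0.16. FOXA2 fell most with both (log2 change -2.46, SE 0.33, and -2.76, SE 0.33, at edgeR adjusted p-values of 0.000767 and 0.000205), from 12.7 to 14.3 CPM in the controls to between 1.99 and 3.53 with dCBP. FOXC2 (-2.12 and -1.76, edgeR adjusted p 0.00502 and 0.0144) and FOXF1 (-1.68 and -1.97, adjusted p 0.00983 and 0.00482), factors of mesoderm development, fell as well. FOXO6, the remaining gene of the FOXO family, fell by 1.84 with dCBP and by 1.82 with IHK-44 (edgeR adjusted p 0.0119 and 0.0159), from 26.3 to 34.2 CPM in the controls to between 5.16 and 12.9 with dCBP. FOXD2 and FOXD3 were the 2 that rose with either compound.

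Of 30 tested genes that act on FOXO proteins, 1 rose and 8 fell with dCBP (23.7% of all genes called), and 1 rose and 6 fell with IHK-44 (16.9%), with medians of -0.17 and -0.15. The gene that rose was PDPK1, the kinase that activates AKT, with dCBP and SIRT1, a deacetylase of FOXO proteins, with IHK-44. IRS1, the adaptor that carries insulin and IGF signals to AKT, fell most (log2 change -2.57, SE 0.75, and -2.56, SE 0.75, at edgeR adjusted p-values of 0.024 and 0.0309), from 600 to 733 CPM in the controls to between 32.3 and 341 with dCBP. SGK1, a kinase that phosphorylates FOXO proteins, changed by -1.33 and -1.51 (edgeR adjusted p 0.0012 and 0.00034). SKP2, a ubiquitin ligase subunit that targets FOXO1, changed by -0.89 and -0.77 (edgeR adjusted p 0.019 and 0.0407). YWHAZ, a 14-3-3 protein that holds FOXO in the cytoplasm, changed by -0.58 and -0.43 (edgeR adjusted p 0.00429 and 0.0202). At 6 h, 4 of the 30 rose and 14 fell with dCBP (46.5% of all genes called). With IHK-44 at 6 h, 8 rose and 13 fell (43.1%), with MTOR, PDPK1 and SIRT1 among those that rose.

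Of 25 known FOXO target genes tested, 2 rose (IRS2 and ULK1) and 6 fell with dCBP, where 23.7% of all genes were called in either direction. With IHK-44 1 rose (IRS2) and 6 fell, against 16.9% of all genes. The list medians were -0.06 and -0.03. Among the called genes the largest falls were in CITED2 (log2 change -2.56 and -2.86, edgeR adjusted p 0.00066 and 0.000205), whose protein binds CBP and p300, GADD45A (-1.49 and -2.05, adjusted p 0.00433 and 0.000595), a stress gene, CDKN1A (-0.93 and -1.35, adjusted p 0.0104 and 0.00147), a cyclin-dependent kinase inhibitor, and ERBB3 (-1.12 and -1.12, adjusted p 0.0312 and 0.0394), a receptor. PPARGC1A, a metabolic coactivator gene, was at -1.44 and -1.37 and did not pass (edgeR adjusted p 0.0693 and 0.0883). At 6 h, 7 of the 25 rose and 6 fell with dCBP (46.5% of all genes called), and 6 rose and 6 fell with IHK-44 (43.1%). CDKN1A was also the 1 target called with A485 (-1.13, SE 0.22, edgeR adjusted p 0.0477).

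EYA and DACH genes and other early muscle progenitor regulators act with PAX3 in the embryo. Of 16 tested, 1 rose and 9 fell with dCBP (23.7% of all genes called), and 0 rose and 7 fell with IHK-44 (16.9%), with medians of -1.47 and -1.22. MSC, a basic helix-loop-helix repressor, changed by -2.48 and -2.05 (edgeR adjusted p 0.00196 and 0.00556) and PITX3 by -2.34 and -2.12 (adjusted p 0.017 and 0.0307). MEOX1, a somite homeobox gene, fell by 2.57 with dCBP (edgeR adjusted p 0.0406) and was at -2.37 with IHK-44 (adjusted p 0.0636). The gene that rose was EYA3. At 6 h, 2 rose and 12 fell with dCBP (46.5% of all genes called), and 1 rose and 13 fell with IHK-44 (43.1%). Against DMSO over both times, no gene of these lists passed with A485 other than CDKN1A, and none did with JQAD.

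**Figure D5:**
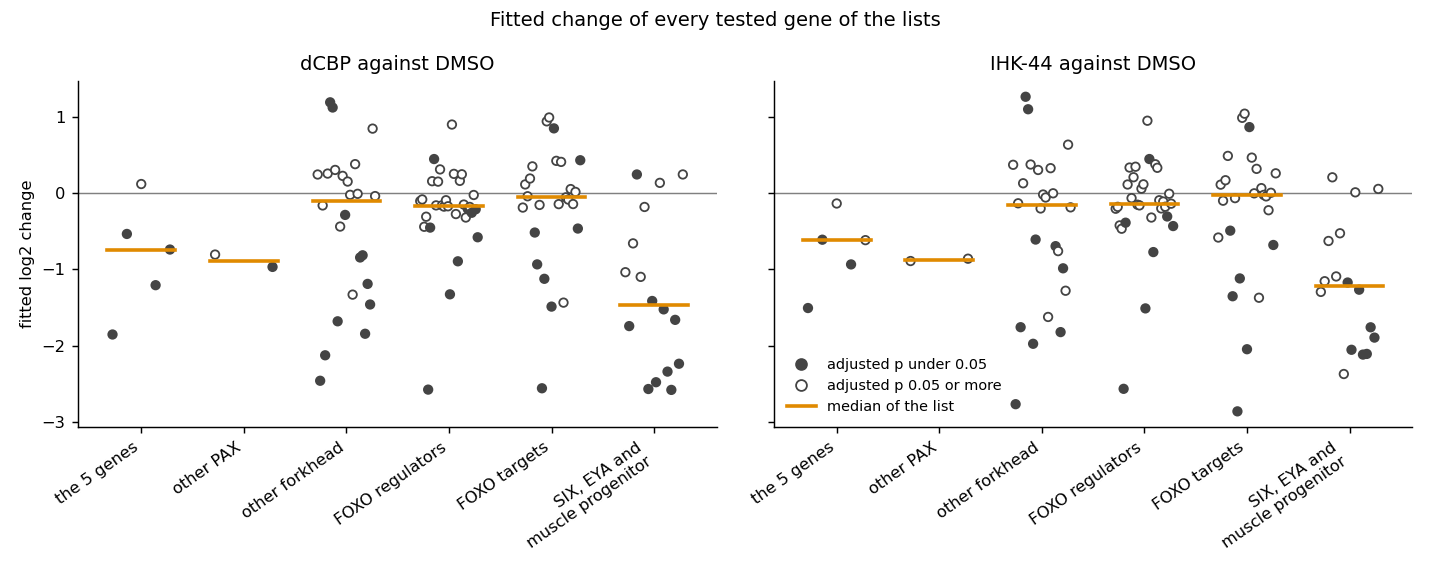
Fitted log2 change (vertical axis) against DMSO with dCBP and IHK-44 for the 5 genes and for every tested gene of the other PAX genes, other forkhead genes, FOXO regulators, FOXO targets and muscle progenitor regulators, with filled points for an adjusted p under 0.05 and bars for list medians. The muscle progenitor list has the lowest median with both compounds (-1.47 and -1.22).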

How the data were processed

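RNA-seq of total RNA from RH4 cells was analysed in 20 libraries, and the series' ChIP-seq and ChRO-seq samples were not analysed here. The deposited tables hold estimated (expected) counts per gene, TPM, FPKM and a CPM column, which equals the expected count scaled by the library's coding total. The submitters' processing notes name STAR 2.5.3a and RSEM 1.3.3, with hg38, without giving roles. Expected counts were whole within 0.005 for 88.2% of values and were rounded. Coding totals of 13466631 to 16799327 set the precision.

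All 13260 genes passing filterByExpr were fitted with edgeR 4.0.16 (R 4.3.3, TMM, quasi-likelihood, compound plus time), with Benjamini-Hochberg adjustment over all genes and a threshold of 0.05. Dose (12895 genes) and time (13001 genes) had their own fits. Ratios were tested by exact permutation. The scripts were tested on simulated data. Alternatives were RLE scaling, no filter, DESeq2 1.42.0, limma 3.58.1, other controls and leaving out single libraries, and 4 were added after seeing the data. The libraries left out were those of the compounds and, only for changes against DMSO over both times, those of DMSO. Named genes are the 5 members, the 3 genes most correlated with each, up to 4 called genes of largest change per list, and the 3 nearest coding genes on each side of PAX3 and FOXO1. Further called list members were named after their values were seen. Members and lists were chosen with earlier results of these data known.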

Additional observations from a re-analysis of the deposited data

Results flagged for a closer look

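With dCBP, the change against DMSO and NT differed between 6 h and 2 h by -1.099 in PAX3 (edgeR adjusted p 0.0406), -2.065 in FOXO1 (adjusted p 0.0309) and 0.866 in FOXO4 (adjusted p 0.028), all on the log2 scale, which is a difference between time points by the interaction term. In FOXO4 all dCBP libraries lay below the controls of their time at 2 h and above them at 6 h in CPM. The same held for IHK-44 in FOXO4, where the interaction was 0.365 and did not pass (edgeR adjusted p 0.344). On the TPM scale both IHK-44 libraries at 6 h lay below the controls. With 100 nM IHK-44 at 6 h the rise of FOXO4 in log2(CPM + 1) against DMSO (0.028) was smaller than that of the median gene (0.178).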

How the results depend on the processing

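Of 1432 alternative values for 138 results, 1261 kept direction and side of the threshold, and no called effect, pair, time or single-time result changed sign. The 7 calls against DMSO held in 79 of 100 alternatives, the 8 between compounds in 80 of 91, the 3 time interactions in 14 of 27 and the 13 at single times in 102 of 122. The causes of the changes below were not tested. The labels give no replicate numbers by which to pair libraries, but the compounds' libraries match by dose and time. A block for each dose and time, added after the data were seen, kept all 8 calls between compounds and added 0 members. Where leaving out a library left 1 in a group, that library was assumed to vary like the other groups. Single DMSO libraries were left out only for the changes against DMSO over both times, and single NT libraries never. The tallies between compounds, for time interactions and for single times therefore do not cover the loss of 1 control library.

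Leaving out 1 library at a time, the log2 change against DMSO with dCBP ran from -1.396 to -1.012 in PAX3, -0.823 to -0.662 in PAX7, -2.263 to -1.448 in FOXO1, -0.573 to -0.504 in FOXO3 and -0.09 to 0.276 in FOXO4. With IHK-44 it ran from -1.124 to -0.739 in PAX3, -0.748 to -0.501 in PAX7, -1.862 to -1.094 in FOXO1, -0.662 to -0.582 in FOXO3 and -0.286 to 0.012 in FOXO4, and for FOXO3 with A485 from -0.476 to -0.335. With JQAD it ran from -0.17 to 0.215 in PAX3, -0.175 to 0.021 in PAX7, -0.406 to 0.362 in FOXO1, -0.076 to 0.023 in FOXO3 and -0.193 to 0.104 in FOXO4. Between compounds, PAX7 ran from -0.256 to 0.011 (dCBP against IHK-44) and -0.308 to 0.013 (IHK-44 against A485), and FOXO4 from -0.04 to 0.325 (dCBP against JQAD). For dose, PAX7 with A485 ran from -0.724 to 0.225 and FOXO4 with IHK-44 from -0.067 to 0.33. The dCBP time interaction ran from -1.179 to -1.037 in PAX3, -2.338 to -1.752 in FOXO1 and 0.623 to 1.06 in FOXO4, and that of IHK-44 from -1.077 to -0.253 in PAX3 and -2.227 to -0.511 in FOXO1. FOXO4 with IHK-44 at 6 h ran from -0.121 to 0.206. The JQAD ratios ran from -0.071 to 0.04 (FOXO1 to FOXO3) and -0.117 to 0.092 (FOXO1 to FOXO4). The number of the 5 genes called ran from 0 to 1 (A485 against DMSO, A485, dCBP and IHK-44 at 2 h, IHK-44 dose), 0 to 2 (A485 against JQAD, dCBP against A485, IHK-44 time), 0 to 3 (dCBP time) and 0 to 4 (dCBP and IHK-44 against DMSO, A485 at 6 h).

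DESeq2 gave FOXO3 with A485 -0.423 and PAX7 with IHK-44 -0.646, both past the threshold, and called 1 gene with A485, 2 for A485 against JQAD, 1 for A485 dose and 2 for dCBP at 2 h. DMSO and NT together gave -0.444 and -0.577 for the same pair of values and 1 call with A485. With limma on log2(TPM + 1), PAX7 with IHK-44 was -0.608 and passed, and FOXO4 with dCBP was -0.251. Fitting only the compound and controls lost PAX7 with dCBP (-0.768), PAX3 with IHK-44 (-0.931) and FOXO1 with IHK-44 (-1.495), leaving 1 call with IHK-44. NT in place of DMSO gave -0.644 for PAX7 with dCBP and 0.001 with JQAD. Without the filter, PAX7 passed in the IHK-44 time interaction (-0.824, 1 call), and 3 genes were called at 2 h with dCBP and with IHK-44. DMSO alone and NT alone gave dCBP time interactions of -1.091 and -1.121 in PAX3, -2.14 and -2.002 in FOXO1 and 0.885 and 0.834 in FOXO4, and 0 calls there, for A485 at 6 h and for dCBP and IHK-44 at 2 h. Summing FOXO3 and FOXO3B gave -0.178 (dCBP) and -0.227 (IHK-44) against DMSO, 0 calls for A485 against JQAD and at 2 h with dCBP and IHK-44, 1 at 6 h with A485, and FOXO1 to FOXO3 ratios of -0.712 (A485), -1.793 (dCBP) and -1.335 (IHK-44).

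Counts over all genes moved by over 1.5 times in 73 of 180 alternatives: the 3137 genes of dCBP against DMSO ranged from 118 to 5344 in those, the 2247 of IHK-44 from 125 to 4605, the 36 of A485 from 0 to 871, and the 1197 of the dCBP time interaction from 0 to 2504. The block of dose and time gave 395 genes in place of 651 for A485 against JQAD, 34 in place of 117 for IHK-44 against A485 and 15 in place of 96 for dCBP against A485.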
